A study of Mus musculus with 12 samples.

Results

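The transcripts described here code for 9 chains of the interstitial collagens, Col1a1, Col1a2, Col3a1, Col5a1, Col5a2, Col6a1, Col6a2, Col8a1 and Col12a1, and for lysyl oxidase, Lox. The 10 genes are a list of named genes, drawn up with earlier results of these data known, out of 19938 genes that the arrays measured with a transcript cluster (a set of probes along 1 transcript) annotated to a single symbol. Each of the 10 had 1 such cluster. They were measured in C2i-Myog cells, a stable derivative of C2C12 mouse myoblasts in which doxycycline induces a Flag-tagged form of Myog, the myogenic transcription factor myogenin. The question is what a loss of p38 signalling and a gain of myogenin each do to expression during differentiation, and whether myogenin restores what the inhibitor takes away.

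All 4 groups carried the transgene, and each had 3 arrays. Per the submitters' protocol, cells near confluence were moved for 48 h to medium with 1% horse serum, 10 µg/mL insulin and 10 µg/mL transferrin. Control cells received neither doxycycline nor the inhibitor. From the start of differentiation, the Dox group had 0.2 µg/mL doxycycline in its medium, the SB group had 10 µM SB203580, an inhibitor of p38α and p38β kinases, and the SB+Dox group had the pair of agents together. The label of the control arrays does not mention differentiation, so their place at 48 h rests on that shared protocol. Doxycycline was not given to cells lacking the transgene, so the drug and the induced myogenin cannot be told apart. The labels do not say whether the line is 1 clone, or whether replicates were separate cultures, and p-values therefore describe the spread among these arrays, which may be technical.

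Collagens are built from 3 chains wound into a helix. Collagens I, III and V form fibrils, with collagen V controlling how fibrils start and how thick they become. Collagen VI forms beaded filaments close to the cell, collagen VIII forms networks, and collagen XII binds to the surface of fibrils. Lox oxidises lysines of collagen and elastin outside the cell, which lets neighbouring chains cross-link. In muscle these proteins fill the space between fibres. Fibroblasts make most of them in the tissue, and cultured myoblasts also express several of these genes.

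The inhibitor and doxycycline lowered some members in common and others unequally. With SB203580 alone Lox, Col5a1 and Col5a2 fell, while doxycycline alone moved these 3 genes by at most 0.13 on the log2 scale. With doxycycline alone Col3a1 fell 3.59-fold and Col6a1 2.30-fold, against 1.26-fold lower for Col3a1 and 1.19-fold lower for Col6a1 with the inhibitor, neither of which passed the test. Col1a1, the main chain of collagen I, fell 5.6-fold with SB203580 and 4.64-fold with doxycycline, and Col1a2, Col6a2 and Col12a1 also fell with each agent alone. Adding doxycycline to the inhibitor raised 0 of the 8 members that fell in SB, by limma's adjusted test and also at an unadjusted p under 0.05. In that step limma called 4.40% of all clusters higher, and the members' count was not tested against this share.

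Throughout, values are log2 RMA signals, a change is the difference between means of 3 arrays, and a gene is said to rise or fall when limma's moderated test gave an adjusted p under 0.05. P-values were adjusted over all 21789 clusters with 1 symbol by the Benjamini-Hochberg method. Signals of different genes are not set against each other, because probes differ in brightness.

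**Figure D1:**
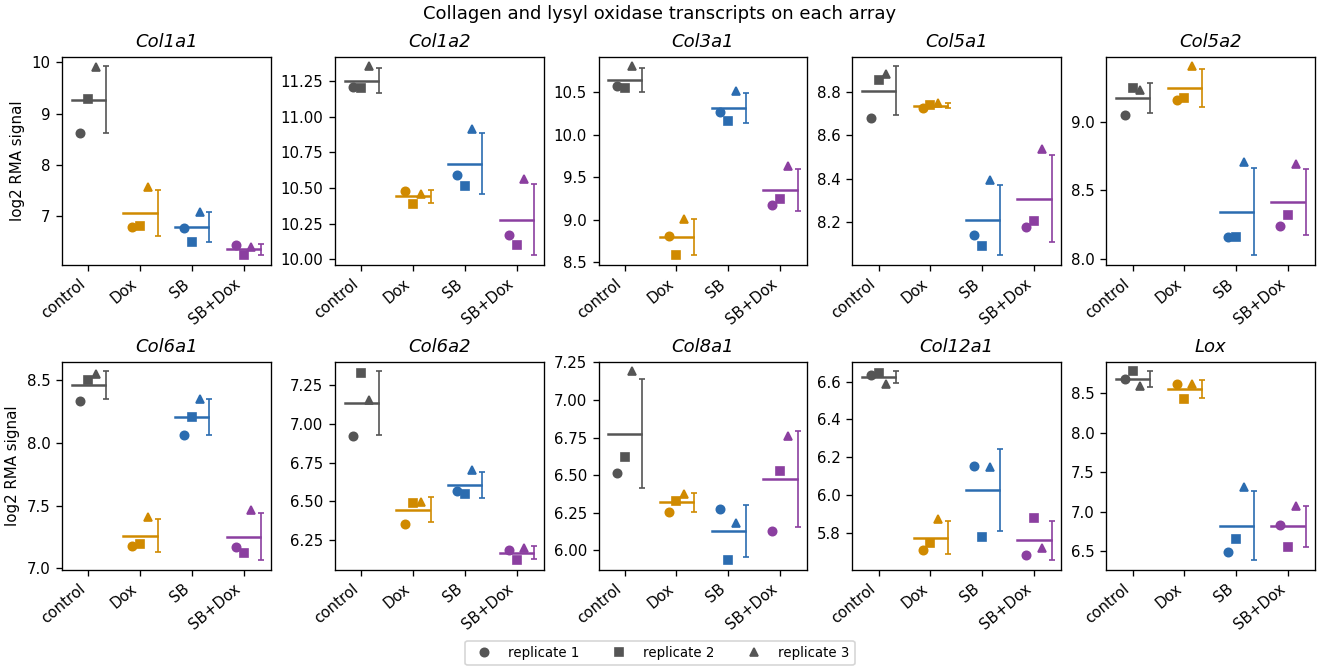
Log2 RMA signal of each of the 10 transcripts (vertical axis, own scale in each panel) on each of the 12 arrays (horizontal axis, 4 groups of 3). Symbols give the replicate number, the line is the group mean and the bar beside it is the SD. Lox in SB and SB+Dox lies at or below 7.31, and in control and Dox at or above 8.43.

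The sequence before the transcription start is shown for 4 members that stand for the different responses, Col3a1 and Col6a1 (lowered mainly with doxycycline), Col1a2 (lowered with each agent) and Col5a1 (lowered with the inhibitor). RefSeq windows of build GRCm38.p6 were given for 6 of the 10 members, with a pair of windows for Col6a2 and 1 each for the other 5. Each sequence below is the 250 bases before the annotated start, 5′ to 3′ on the gene's own strand. Capitals mark matches, on either strand, to CANNTG (the E-box that myogenin and related factors bind), TGANTCA (the AP-1 motif), GGGCGG (a GC box), the CCAAT box and the TATA box TATAAA.
Col3a1 at chr1:45311288-45311537, plus strand: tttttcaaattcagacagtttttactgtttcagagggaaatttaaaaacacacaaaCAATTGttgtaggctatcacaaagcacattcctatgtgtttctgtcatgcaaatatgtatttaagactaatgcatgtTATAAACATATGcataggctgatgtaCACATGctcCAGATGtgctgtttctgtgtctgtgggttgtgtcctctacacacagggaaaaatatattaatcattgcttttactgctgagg
Col6a1 at chr10:76726045-76726294, minus strand: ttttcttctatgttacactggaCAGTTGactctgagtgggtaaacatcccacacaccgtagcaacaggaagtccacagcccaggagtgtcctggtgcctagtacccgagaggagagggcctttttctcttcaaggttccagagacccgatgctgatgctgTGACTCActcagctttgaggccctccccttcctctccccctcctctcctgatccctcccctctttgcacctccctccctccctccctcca
Col1a2 at chr6:4505368-4505617, plus strand: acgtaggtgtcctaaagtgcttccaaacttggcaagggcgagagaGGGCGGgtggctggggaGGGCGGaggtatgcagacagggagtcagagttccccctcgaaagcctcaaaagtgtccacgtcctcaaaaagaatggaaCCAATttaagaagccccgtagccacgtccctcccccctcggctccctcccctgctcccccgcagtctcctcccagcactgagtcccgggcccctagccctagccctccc
Col5a1 at chr2:27886175-27886424, plus strand: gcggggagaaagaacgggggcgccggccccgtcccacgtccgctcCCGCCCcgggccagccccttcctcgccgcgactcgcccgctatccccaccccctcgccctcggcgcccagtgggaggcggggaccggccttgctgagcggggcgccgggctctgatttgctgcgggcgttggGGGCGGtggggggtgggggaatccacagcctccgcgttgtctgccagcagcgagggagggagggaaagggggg

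Counting back from -1, the base before the start, the Col3a1 window held 4 E-box matches, which begin at -194, -111, -91 and -82. Its TATAAA at -117 ends where the E-box at -111 begins, so both lie in 1 run of capitals. Among 32851 promoter windows of the same length, 66.2% held at least 1 E-box match and 12.4% held TATAAA. The Col6a1 window held 1 E-box match at -228 and an AP-1 match at -90, a motif found in 6.75% of windows. Col1a2 had GC boxes at -205 and -188 and CCAAT at -109, and Col5a1 had GC boxes at -205 and -73. GGGCGG was found in 32.7% of windows. Neither the Col1a2 nor the Col5a1 window held these E-box letters, and neither did those of Col6a2, while Col8a1 had matches at -99 and -18. These are matches of letters in windows before annotated starts, and binding was not measured.

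The arrays were close in overall level, with medians between 4.86 and 5.06, and replicates of a group correlated at 0.989 or above over all clusters. Myog averaged 9.91, 10.37, 7.70 and 8.33 in control, Dox, SB and SB+Dox, and its probes may read the transgene as well as the cell's own gene. The Dox arrays (10.30 to 10.40) lay above the control arrays (9.66 to 10.18), but the change of Myog did not pass in Dox against control (0.46, adjusted p = 0.467) or in SB+Dox against SB (0.64, adjusted p = 0.157). With both agents Myog was 2.98-fold below control (adjusted p = 0.00162). The 11 muscle markers had a mean level between 8.95 and 10.24 on every array, at 8.95 to 9.56 in SB and 9.68 or above in the other groups. In SB 6 of them fell (Myod1, Myog, Cdh15, Mymk, Tnnt1 and Ttn) and Myf5 rose. In Dox Mymk rose and Myf5 fell, and from SB to SB+Dox Mymk, Myh3 and Ttn rose. Over all clusters limma called 3.87% lower and 2.51% higher in SB, and 3.88% and 1.43% in Dox. From SB to SB+Dox the shares were 2.71% lower and 4.40% higher. Counts of markers, for this list and the next ones, were not tested against these shares. The fibroblast markers, of which 10 of 11 were measured, had mean levels of 5.31 to 5.78 on control arrays and 5.05 to 5.11 on Dox arrays. On SB arrays these were 5.86 to 5.99, and on SB+Dox arrays 5.55 to 5.63. Among them Cd34 and Dcn rose in SB, and Cd34, Dcn and Gsn fell in Dox, while the other members of the list did not pass in these comparisons. The part of the muscle and fibroblast markers' changes in those of the collagens was not tested, and fewer cells of a type and less RNA per cell cannot be told apart in bulk RNA. Of 7 smooth muscle markers, Tagln, Acta2 and Actg2 fell in SB. Among endothelial and macrophage markers 0 of 12 passed limma's test in SB or Dox against control, where 1 of the 12, an endothelial marker, had an unadjusted p under 0.05 and was higher in Dox, and 5 of 6 in each list had group means under the array-wide median. Adipocyte Lpl rose in SB, and Sox9, of 7 measured osteoblast and chondrocyte markers, rose in Dox.

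The arrays numbered 3 lay high for these genes. On the third array 8 of the 10 members were above their group's mean in control, 10 in each of Dox and SB, and 9 in SB+Dox. The mean deviations were 0.14 (control), 0.13 (Dox), 0.22 (SB) and 0.19 (SB+Dox). The labels give no batch for the numbers, and the part of this shift in the changes was not tested. Without the third array of every group, Col8a1 no longer passed in SB against control (adjusted p = 0.0844) and Col6a2 no longer passed in SB+Dox against SB (adjusted p = 0.100), while Col1a2 then passed in SB+Dox against SB (adjusted p = 0.0312) and the interaction of Col3a1 passed (adjusted p = 0.0377).

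In SB against control 8 of the 10 members fell and 0 rose, where limma called 3.87% of all clusters lower and 2.51% higher. At an unadjusted p under 0.05, 10 members were lower and 0 higher. The median change of the 10 was -0.60, against 0.03 over all clusters. In Dox against control 6 members fell and 0 rose, where 3.88% of all clusters were called lower and 1.43% higher, and 7 were lower and 0 higher at an unadjusted p under 0.05. The median change was -0.75, against 0.01 over all clusters. The comparisons share the control arrays. When array medians were set equal, the calls over all clusters in SB against control shifted from 843 lower and 547 higher to 884 lower and 336 higher, and the members' counts did not move.

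**Figure D2:**
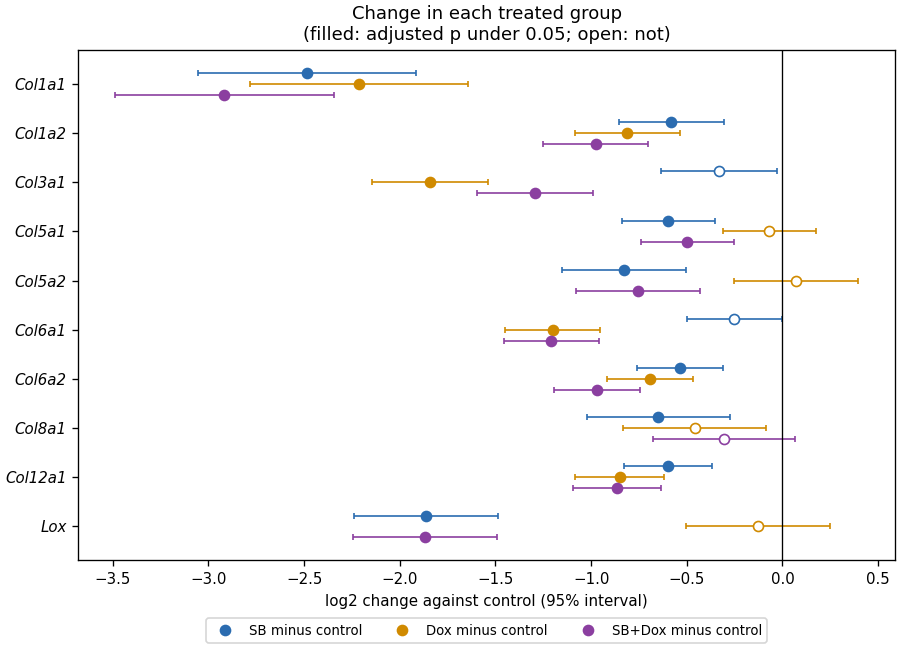
Log2 change of each transcript against control (horizontal axis, with 95% intervals) in SB, Dox and SB+Dox. Filled points passed an adjusted p under 0.05. Lox and both collagen V chains have their Dox points near 0 and their SB points to the left of it.

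Among the fibril-forming chains, Col1a1 moved most. Its signal was 8.62, 9.28 and 9.92 on the control arrays, 6.79, 6.81 and 7.57 with doxycycline, 6.78, 6.50 and 7.09 with the inhibitor, and 6.43, 6.23 and 6.40 with both. The 3 control arrays were spread over more than 1 log2 unit and still lay above each of the 9 treated arrays. It fell by 2.49 in SB (SE 0.27, adjusted p = 6.10e-05) and by 2.21 in Dox (adjusted p = 1.87e-04). The order of the means was control (9.27 ± 0.65), Dox (7.06 ± 0.44), SB (6.79 ± 0.29) and SB+Dox (6.35 ± 0.11) (SD, n = 3), and below control no neighbouring pair passed the test. With both agents Col1a1 was 7.55-fold below control (adjusted p = 1.97e-05).

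Col1a2, the partner chain of collagen I, fell less. It read 11.21, 11.20 and 11.35 in control, 10.48, 10.39 and 10.46 in Dox, 10.59, 10.51 and 10.91 in SB, and 10.17, 10.10 and 10.56 in SB+Dox. Control lay above the other groups on every array, and the treated groups overlapped one another in part. The fall was 1.75-fold with doxycycline (adjusted p = 0.00127), 1.5-fold with the inhibitor (adjusted p = 0.0125) and 1.97-fold with both (adjusted p = 3.76e-04). The inhibitor's call for Col1a2 was lost without control replicate 3 (adjusted p = 0.0537), SB replicate 1 (0.0517) or SB replicate 2 (0.0733).

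Col3a1, the single chain of collagen III, responded chiefly to doxycycline. Its values were 10.58, 10.55 and 10.80 in control and 8.81, 8.58 and 9.0 in Dox, then 10.26, 10.16 and 10.51 in SB and 9.17, 9.24 and 9.63 in SB+Dox. Both groups with doxycycline lay below both groups without it, with no overlap. The change in Dox was -1.84 (SE 0.14, adjusted p = 9.20e-06). In SB it was -0.33, with a 95% interval of -0.63 to -0.03 (adjusted p = 0.234). With the inhibitor present, doxycycline lowered Col3a1 by 1.95-fold (adjusted p = 0.00100), and SB+Dox stayed 1.46-fold above Dox (adjusted p = 0.0208). That last call was lost without Dox replicate 1 (adjusted p = 0.0550), Dox replicate 2 (0.103) or SB+Dox replicate 3 (0.108), and when every cluster was tested (0.0682).

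The collagen V chains showed the reverse. Col5a1 read 8.68, 8.86 and 8.88 in control and 8.73, 8.74 and 8.75 in Dox, against 8.14, 8.09 and 8.39 in SB and 8.18, 8.21 and 8.54 in SB+Dox. All 6 arrays with the inhibitor lay below the 6 without it. Col5a2 gave 9.05, 9.25 and 9.23 in control and 9.16, 9.18 and 9.40 in Dox, against 8.16, 8.16 and 8.71 in SB and 8.24, 8.32 and 8.69 in SB+Dox, with the same separation. Col5a1 fell 1.51-fold in SB (adjusted p = 0.00491) and Col5a2 fell 1.78-fold (adjusted p = 0.00375). In Dox the change of Col5a1 was -0.07 (95% interval -0.31 to 0.17) and that of Col5a2 was 0.07 (-0.25 to 0.39), so falls as large as those in SB lie outside both intervals. Col5a2 is the next protein-coding gene to Col3a1 in the RefSeq annotation of GRCm38.p6, and between SB and Dox these neighbours differed in opposite directions.

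Of the collagen VI chains, Col6a1 followed the pattern of Col3a1. Its signal was 8.33, 8.50 and 8.55 in control and 8.06, 8.21 and 8.35 in SB, against 7.18, 7.19 and 7.41 in Dox and 7.17, 7.12 and 7.47 in SB+Dox. The groups with and without doxycycline were apart by more than 0.5 at their closest, whereas control and SB overlapped. Doxycycline lowered Col6a1 by 2.30-fold (adjusted p = 4.01e-05), and in the presence of the inhibitor by 1.94-fold (adjusted p = 3.42e-04). The change in SB was -0.25 (adjusted p = 0.281).

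Col6a2, the gene next to Col6a1, was lower with each agent. It read 6.92, 7.33 and 7.16 in control, 6.35, 6.49 and 6.49 in Dox, 6.56, 6.54 and 6.70 in SB, and 6.18, 6.12 and 6.20 in SB+Dox. No treated array reached the lowest control array, and SB+Dox lay below every other array. It fell 1.62-fold with doxycycline (adjusted p = 9.06e-04), 1.45-fold with the inhibitor (adjusted p = 0.00617) and 1.96-fold with both (adjusted p = 8.04e-05). The further fall from SB to SB+Dox was 1.35-fold (adjusted p = 0.0191). For Col6a2 this step was lost without any 1 of the 3 SB+Dox arrays (adjusted p = 0.0508, 0.0722 and 0.0619 without replicates 1, 2 and 3), with arrays centred on their medians (0.0834) and when every cluster was tested (0.0518).

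Of the remaining chains, Col12a1, whose product decorates fibril surfaces, gave 6.64, 6.65 and 6.59 in control, 5.71, 5.74 and 5.87 in Dox, 6.16, 5.78 and 6.15 in SB, and 5.68, 5.88 and 5.72 in SB+Dox. Control stood clear of the 9 treated arrays, which ran together. Col12a1 fell 1.80-fold with doxycycline (adjusted p = 2.78e-04), 1.51-fold with the inhibitor (adjusted p = 0.00362) and 1.82-fold with both (adjusted p = 2.55e-04).

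Col8a1, a chain of network-forming collagen VIII, had the weakest evidence of change. Its values were 6.52, 6.62 and 7.19 in control, 6.25, 6.33 and 6.37 in Dox, 6.27, 5.93 and 6.18 in SB, and 6.13, 6.53 and 6.76 in SB+Dox. The SB+Dox arrays overlapped all 3 other groups, and no neighbouring pair in the order of the 4 means passed the test. Col8a1 fell 1.57-fold in SB (adjusted p = 0.0371), and the changes of -0.46 in Dox (95% interval -0.83 to -0.09) and -0.31 in SB+Dox (-0.68 to 0.07) did not pass. The call for Col8a1 in SB was lost without control replicate 2 or 3 (adjusted p = 0.0542 and 0.152), without Dox replicate 1 (0.0515), without SB replicate 1, 2 or 3 (0.0565, 0.175 and 0.0546) and without SB+Dox replicate 2 (0.0510). It was also lost when every cluster was tested (0.122) and when control and SB were fitted alone (0.0598).

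Lox, the cross-linking enzyme, separated the groups by inhibitor alone. It read 8.68, 8.78 and 8.59 in control and 8.62, 8.43 and 8.62 in Dox, against 6.49, 6.66 and 7.31 in SB and 6.83, 6.55 and 7.07 in SB+Dox. The lowest array without the inhibitor exceeded the highest with it by more than 1 log2 unit. Lox fell 3.64-fold in SB (change -1.86, SE 0.18, adjusted p = 2.24e-05) and, with doxycycline present, 3.35-fold from Dox to SB+Dox (adjusted p = 1.54e-05). In Dox it changed by -0.13, with a 95% interval of -0.50 to 0.25.

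Comparing the inhibitor with doxycycline directly, 5 of the 10 members differed between SB and Dox. The difference of these means uses no control array, while its spread was estimated from all 12 arrays. Limma called 8.86% of all clusters lower and 9.20% higher in SB than in Dox. Col3a1 was 2.85-fold higher in SB than in Dox (adjusted p = 2.65e-06) and Col6a1 was 1.93-fold higher (adjusted p = 3.21e-05). Lox was 3.33-fold lower in SB than in Dox (adjusted p = 5.47e-06), with Col5a2 lower by 0.90 and Col5a1 by 0.53 on the log2 scale (adjusted p = 5.33e-04 and 0.00370). These 5 calls held under every alternative setting. Col1a1, Col1a2, Col6a2, Col8a1 and Col12a1 did not pass, with differences of -0.27, 0.23, 0.16, -0.19 and 0.25, which does not show that the agents lowered them equally. Col12a1 passed without SB replicate 2 (0.38, adjusted p = 0.0207).

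The next question is whether doxycycline, given to induce myogenin, brought these transcripts back in cells with the inhibitor. The Myog signal itself did not pass in this step and stayed below control with both agents. These arrays therefore do not show Myog back at its control level. In SB+Dox against SB, 3 members fell, Col3a1, Col6a1 and Col6a2, and 0 rose, where 2.71% of all clusters were called lower and 4.40% higher by limma. At an unadjusted p under 0.05, 5 were lower and 0 higher. With arrays centred on their medians the calls over all clusters moved from 591 lower and 959 higher to 370 lower and 1188 higher, and 0 members rose under any setting run. Same-numbered SB and SB+Dox arrays varied together, and in a fit that treats the replicate number as a block Col1a2 also fell in this comparison (-0.40, adjusted p = 0.0227, against 0.0827 without the block). Col1a2 passed too without SB+Dox replicate 3 (adjusted p = 0.0268), and Col12a1 passed without SB replicate 2 (adjusted p = 0.0435).

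For Lox the step from SB to SB+Dox was -0.01, with a 95% interval of -0.38 to 0.37, against a loss of 1.86 with the inhibitor. For Col5a1 it was 0.10 (-0.14 to 0.34) and for Col5a2 0.07 (-0.25 to 0.40). Col1a1 moved by -0.43 (-1.0 to 0.14), away from control. In 7 of the 8 members that fell in SB, the upper limit of this step lay below the measured loss, the exception being Col8a1, with 0.34 (-0.03 to 0.72). Expressed as a share of the loss, with no test, the return was -0.32% for Lox, 16.5% for Col5a1, 8.98% for Col5a2 and 52.9% for Col8a1. It was -17.4% for Col1a1, -68.0% for Col1a2, -82.1% for Col6a2 and -44.6% for Col12a1, where a negative share is a further loss. The same SB arrays enter both parts of each share. Leaving out 1 array at a time gave -10.1% to 11.4% for Lox and 30.6% to 79.4% for Col8a1.

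**Figure D3:**
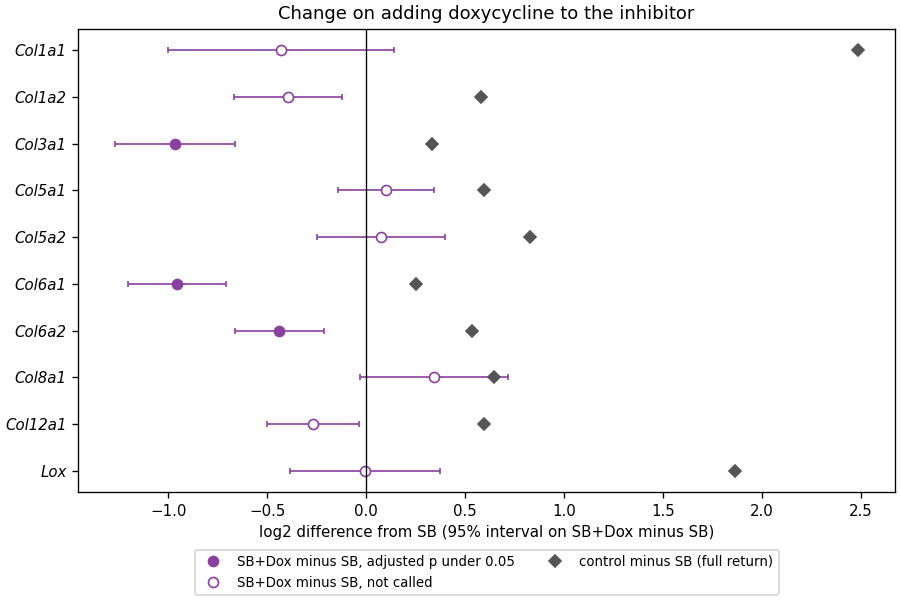
Change of each transcript from SB to SB+Dox on the log2 scale (circles with 95% intervals, filled where the adjusted p was under 0.05) and the distance from SB up to control (diamonds). A full return would put the circle on the diamond, and among the 8 members that fell in SB the interval reaches the diamond for Col8a1 alone.

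With both agents 9 of the 10 members were below control and 0 above, where limma called 2.42% of all clusters lower and 2.84% higher in SB+Dox against control. The median change of the 10 was -0.97, against -0.02 over all clusters. Besides Col1a1, the largest falls were those of Lox (3.65-fold, adjusted p = 2.46e-05), Col3a1 (2.45-fold, adjusted p = 8.79e-05) and Col6a1 (2.31-fold, adjusted p = 2.87e-05). Col5a2 was 1.69-fold and Col5a1 1.41-fold lower (adjusted p = 0.00812 and 0.0180). The call for Col5a1 was lost without control replicate 2 or 3 (adjusted p = 0.0694 and 0.0715), without SB+Dox replicate 1 or 2 (0.0867 and 0.0904), with arrays centred on their medians (0.0562) and when every cluster was tested (0.0582).

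Set against Dox, the addition of the inhibitor lowered Lox, Col5a1 and Col5a2 and raised Col3a1, so 3 members fell and 1 rose where 3.43% of all clusters were lower and 6.97% higher in SB+Dox against Dox. Col5a2 fell 1.77-fold (adjusted p = 0.00206) and Col5a1 1.35-fold (adjusted p = 0.0234). The fall of Col5a1 was lost without Dox replicates 1, 2 or 3 (adjusted p = 0.0597, 0.0639 and 0.0758), without SB+Dox replicate 1 or 2 (0.110 and 0.109), with arrays centred on their medians (0.0766) and when every cluster was tested (0.0620). The further step of -0.70 in Col1a1 did not pass (adjusted p = 0.127). It did when Dox and SB+Dox were fitted alone (0.0364) and with the replicate block (0.0279).

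The interaction asks whether doxycycline did the same with the inhibitor as without it. Of the members, Col1a1 passed, with an interaction of 1.78 (SE 0.38, adjusted p = 0.0434), where limma called 0.725% of all clusters higher and 0.170% lower. Doxycycline changed Col1a1 by -2.21 without the inhibitor and by -0.43 with it, starting in the latter case from a signal already at 6.79. This call was lost without 9 of the 12 arrays in turn, with adjusted p-values from 0.0719 (without control replicate 3) to 0.133 (without SB replicate 2), and was kept without control replicate 1, Dox replicate 3 or SB replicate 3. It was also lost after quantile normalisation (0.0812) and when every cluster was tested (0.192). Col3a1 had an interaction of 0.88 that did not pass (adjusted p = 0.0580) but passed with the replicate block (0.00395), array weights (0.0132), the eBayes trend (0.0308), dim clusters left out (0.0426) and arrays centred on their medians (0.0439), and without SB replicate 3 (0.0315).

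The paired chains of collagens I, V and VI offer a comparison within each array, since a shift of the whole array cancels. Whether the probes of 2 chains respond alike to the same change in transcript was not tested, so the unequal changes below are those of signals. For each pair the log2 difference of the 2 signals was compared between arrays with and without an agent by a two-sided exact permutation test within levels of the other agent, with 6 arrays against 6 and 6 tests adjusted together. The smallest p this design can give is 0.005. Under the inhibitor Col1a1 fell further than Col1a2 by 1.22 (exact p = 0.005, adjusted 0.0075), and the excess was 1.90 without doxycycline and 0.54 with it. Col5a2 fell further than Col5a1 by 0.31, and Col6a2 further than Col6a1 by 0.28 (exact p = 0.005, adjusted 0.0075 for each).

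Doxycycline acted on the collagen VI pair in the opposite direction. It lowered Col6a1 further than Col6a2 by 0.51 (exact p = 0.005, adjusted 0.0075), by 0.51 without the inhibitor and 0.52 with it. Between Col5a1 and Col5a2 its unequal change was -0.06 (exact p = 0.43), and this passed without SB replicate 3 (-0.10, adjusted exact p = 0.018). Col1a1 fell further than Col1a2 by 0.72 with doxycycline (exact p = 0.04, adjusted 0.048), by 1.40 without the inhibitor and by 0.04 with it. A sign-flip test of same-numbered differences, which has fewer possible arrangements, gave an adjusted exact p of 0.15. It pairs SB with SB+Dox, as the numbers do, and also control with Dox. Same-numbered control and Dox arrays correlated at 0.00758, 0.18 and 0.393. For the collagen I pair that call was kept without SB replicate 2, SB+Dox replicate 1 or SB+Dox replicate 2 and lost without any other array, with adjusted exact p-values from 0.06 to 0.126.

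**Figure D4:**
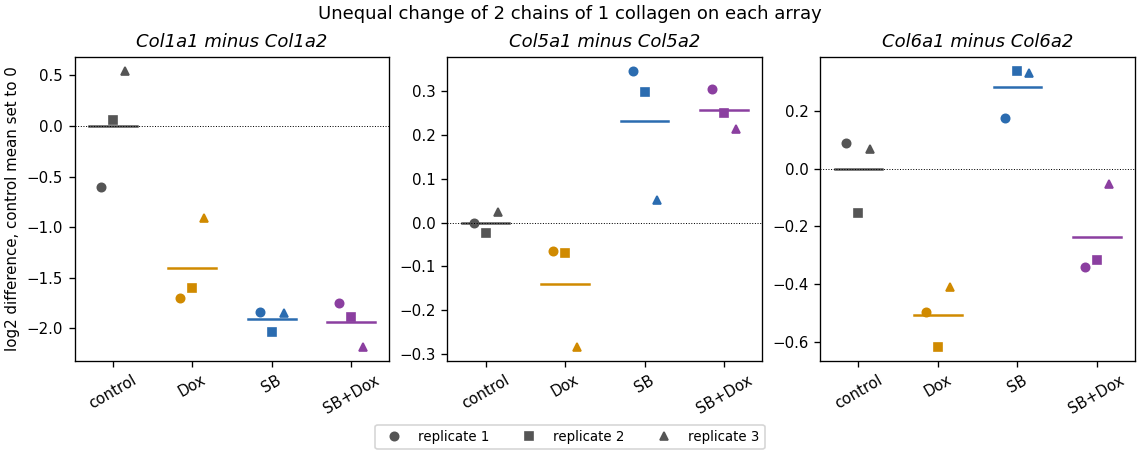
Log2 difference between the signals of 2 chains of collagens I, V and VI on each of the 12 arrays (vertical axis, with the control mean set to 0), by group. Lines are means of 3 arrays and symbols give the replicate number. In the collagen VI panel the 3 SB arrays lie above and the 3 Dox arrays below the control arrays.

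For this list and those below, limma called 3.87% of all clusters lower and 2.51% higher in SB, and 3.88% and 1.43% in Dox. From SB to SB+Dox the shares were 2.71% lower and 4.40% higher, and in SB+Dox against control 2.42% and 2.84%. The counts of the lists were not tested against these shares. Of 35 other collagen chains, 0 fell and 0 rose in SB by limma, with 5 lower and 0 higher at an unadjusted p under 0.05. In Dox 1 fell and 2 rose. The one that fell was Col6a3, the remaining classical chain of collagen VI, which averaged 8.69, 7.68, 8.36 and 7.51 in control, Dox, SB and SB+Dox and was 2.02-fold lower in Dox (adjusted p = 4.92e-04). Col6a3 thus had its calls where Col6a1 had them, falling in Dox and also from SB to SB+Dox (-0.85, adjusted p = 0.00208) and not passing in SB (adjusted p = 0.227). Col18a1 and Col11a1, chains of basement membrane and of cartilage-type fibrils, rose 1.95-fold and 1.54-fold in Dox (adjusted p = 0.00218 and 0.00251). Col4a1 and Col4a2, the basement membrane pair, each rose 1.46-fold from SB to SB+Dox (adjusted p = 0.0305 and 0.0179). Col23a1, a membrane collagen, fell 1.45-fold in the same step (adjusted p = 0.0151). Against control, Col4a1 was above and Col6a3 and Col23a1 were below in SB+Dox. Some of the 35 chains had signals under the array-wide median of 4.93, such as Col10a1 at 4.56 and Col4a6 at 4.84 in Dox. Whether a fall could be seen at such levels was not tested.

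Among 29 measured genes for procollagen modification, folding and processing, 5 fell and 1 rose in SB, and 3 fell and 1 rose in Dox. In SB, Creb3l1, a transcription factor of collagen secretion, fell 1.84-fold (adjusted p = 1.79e-04), and Plod2, which hydroxylates telopeptide lysines that Lox later oxidises, fell 1.56-fold (adjusted p = 0.0103). P3h2, a prolyl 3-hydroxylase, rose 2.57-fold (adjusted p = 2.80e-05). In Dox, Pcolce, an enhancer of procollagen C-proteinase, fell 1.79-fold (adjusted p = 8.05e-04) and P4ha3, a prolyl 4-hydroxylase subunit, fell 1.66-fold (adjusted p = 0.00160), while Tmem38b rose 1.67-fold (adjusted p = 0.00413). From SB to SB+Dox 5 of the 29 rose and 2 fell, Adamts14 by 1.91-fold up and P3h2 by 1.70-fold down among them (adjusted p = 0.00352 and 0.00273). In SB+Dox against control 1 rose and 3 fell, with Creb3l1 1.95-fold and Bmp1 1.41-fold lower (adjusted p = 9.94e-05 and 0.00748).

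Among other lysyl oxidases and elastic fibre genes, 2 rose from SB to SB+Dox, the lysyl oxidase Loxl4 and the elastic fibre gene Fbln5. Of 10 measured lysyl oxidase and elastic fibre genes, 3 fell and 0 rose in SB, and 1 fell in Dox, Loxl3, by 1.29-fold (adjusted p = 0.0493). Loxl4, which like Lox is a lysyl oxidase, averaged 6.49, 6.66, 5.83 and 6.79 in control, Dox, SB and SB+Dox. It fell 1.57-fold in SB (adjusted p = 0.00195) and rose 1.94-fold from SB to SB+Dox (adjusted p = 2.17e-04). Fbln5, an elastic fibre protein, fell 2.14-fold in SB (adjusted p = 0.0241) and rose 2.74-fold from SB to SB+Dox (adjusted p = 0.00419). The change of Loxl4 in that step exceeded the upper limit of 0.37 for Lox, though the difference between the genes was not tested. Emilin1 fell in that step by 1.54-fold (adjusted p = 0.00180) and in SB+Dox against control by 1.34-fold (adjusted p = 0.0243).

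Of 15 genes for fibril-binding proteins, 6 fell and 1 rose in SB, and 4 fell and 1 rose in Dox. Dcn, a proteoglycan that coats collagen fibrils and is also on the fibroblast marker list, was 2.95-fold higher in SB (adjusted p = 0.0118) and 6.26-fold lower in Dox (adjusted p = 3.00e-04). Postn, which binds collagen and supports its cross-linking, averaged 9.53, 10.42, 7.64 and 7.99 in control, Dox, SB and SB+Dox, falling 3.70-fold in SB (adjusted p = 3.66e-05) and rising 1.85-fold in Dox (adjusted p = 0.0106). Aspn, a small leucine-rich proteoglycan, fell 4.41-fold in Dox (adjusted p = 9.31e-05) and was 3.70-fold below control with both agents (adjusted p = 1.86e-04). Its means were 6.01, 3.87, 4.47 and 4.12 in control, Dox, SB and SB+Dox, so each treated group lay under the array-wide median of 4.93. Thbs1, an adhesive glycoprotein, fell 15.3-fold in SB (adjusted p = 2.80e-06). From SB to SB+Dox Thbs1 alone of the 15 rose, by 2.55-fold (adjusted p = 0.00841), and stayed 6.01-fold below control (adjusted p = 8.53e-05), while 1 fell, Bgn, by 1.49-fold (adjusted p = 0.00831). With both agents 5 were below control and 0 above.

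Of 12 collagen receptors, 1 fell in SB, the integrin subunit Itgb1, by 1.44-fold (adjusted p = 0.00617). In Dox 2 fell, the endocytic receptor Mrc2 by 1.54-fold and Itga10 by 1.38-fold (adjusted p = 0.00390 and 0.00427), and 1 rose, Cspg4, by 1.61-fold (adjusted p = 0.00203). From SB to SB+Dox Ddr2, a kinase receptor for fibrillar collagen, rose 1.51-fold (adjusted p = 0.0220), Cspg4 also rose and Antxr1 fell. With both agents 3 were below control and 0 above.

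Of 13 genes for collagen degradation, 2 fell and 1 rose in SB. The inhibitor of metalloproteinases Timp1 fell 2.33-fold (adjusted p = 2.00e-05) and the membrane-bound collagenase Mmp14 1.47-fold (adjusted p = 0.0199), while Timp3 rose 1.38-fold (adjusted p = 0.0293). In Dox Mmp16 fell 1.83-fold and Mmp2 1.47-fold (adjusted p = 1.54e-04 and 0.0177), and Timp3 rose 1.59-fold (adjusted p = 0.00281). From SB to SB+Dox Mmp14 and Mmp16 fell and 0 rose, with 1 higher and 3 lower at an unadjusted p under 0.05 by limma. In SB+Dox against control 4 fell and 1 rose. Some of the 13 genes had signals under the array-wide median of 4.93, such as Mmp8 at 2.84 and Fap at 2.65 in Dox.

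TGF-beta signalling drives collagen and Lox transcription in many cells, and 20 genes of its pathway were measured. In SB 7 fell and 0 rose, including the target gene Ccn2 by 2.54-fold (adjusted p = 3.89e-04) and the feedback repressor Skil by 3.01-fold (adjusted p = 1.06e-05). In Dox 2 fell, Smad3 by 1.66-fold and Tgfbr2 by 1.45-fold (adjusted p = 9.58e-04 and 0.0131), and 1 rose, Ltbp2, by 2.24-fold (adjusted p = 1.87e-04). From SB to SB+Dox 3 rose and 1 fell, with Skil up 1.81-fold (adjusted p = 0.00180), Ltbp1 up 1.75-fold (adjusted p = 3.42e-04) and Tgfbr2, the ligand-binding receptor, down 2.02-fold (adjusted p = 2.39e-04). Ccn2 stood 2.33-fold below control with both agents (adjusted p = 9.60e-04), among 6 that were below and 0 above. Whether these changes bear on the collagens was not tested.

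Within the set, members differed in how closely they followed the others. Each gene was centred and divided by its SD over the 12 arrays, and its Pearson correlation with the mean of the other 9 ran from 0.962 for Col1a1, 0.937 for Col1a2 and 0.913 for Col6a2 down to 0.585 for Col8a1 and 0.576 for Col3a1. Lox stood at 0.661, between Col6a1 at 0.681 and Col5a2 at 0.607. The 12 arrays share their 4 group means, so these are descriptions. Outside the set, the 5 named genes most like the mean profile of the 10 members over the 12 arrays were Vcan (r = 0.947), P2ry10b (0.944), Slc7a7 (0.944), Spock2 (0.934) and Cdh11 (0.933). Vcan, which codes for the matrix proteoglycan versican, averaged 7.96, 6.44, 6.24 and 5.20 in control, Dox, SB and SB+Dox.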

How the data were processed

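RNA of C2i-Myog cells was measured on 12 whole-transcript arrays, 3 in each of 4 groups taken from the sample titles. The authors deposited a log2 RMA signal for each transcript cluster on each array, made with Affymetrix Expression Console per the submitters' processing notes. Its version and the genome build are not given in the sources used here. By definition RMA subtracts background and quantile-normalises across arrays, which reduces shifts shared by most genes. Some remained here, since setting array medians equal changed the calls over all clusters. Of 35557 clusters, 21789 with exactly 1 symbol in the platform annotation were tested, with no filter on low values. Array medians ran from 4.86 to 5.06. Arrays have no read depth, no background level was used, and 3 arrays a group limit the precision.

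One mean per group was fitted to all 12 arrays with limma 3.58.1 in R 4.3.3 (eBayes without trend, 8 residual and 6.56 prior degrees of freedom), with Benjamini-Hochberg adjustment within each comparison and calls at an adjusted p under 0.05. Chain pairs were tested by exact permutation with Python 3.11.15 and numpy 2.4.6. Return is SB+Dox minus SB divided by control minus SB. Both methods were tested on simulated data with known changes. Promoter motifs were counted in RefSeq windows of GRCm38.p6.

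The members and the gene lists were chosen with earlier results of these data known. Named genes were the 10 members, Myog, Mapk14 and Mapk11, the 2 largest called rises and falls per list in SB against control, Dox against control, SB+Dox against SB and SB+Dox against control, and the 5 genes most like the members' mean profile, other than predicted genes, olfactory receptors, small nucleolar RNAs and microRNAs. Mapk14 averaged 7.21, 7.13, 7.52 and 7.68 in control, Dox, SB and SB+Dox, and Mapk11 averaged 6.15, 5.97, 5.79 and 6.01. Whether replicate numbers pair the arrays was checked from their deviations from group means. Same-numbered SB and SB+Dox arrays correlated at 0.436, 0.194 and 0.493, so the numbers pair those groups. In control and SB same-numbered arrays correlated at 0.219, -0.0841 and -0.0798. For Dox and SB+Dox the values were 0.0875, 0.282 and 0.148, each above the correlations with SB+Dox arrays of another number. Alternatives were the block, other normalisations, filters and variance settings, the 2 groups alone and leaving out each array. Leaving out the third replicate of every group, and the alternatives for SB against Dox, were added after seeing the data.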

Additional observations from a re-analysis of the deposited data

Results flagged for a closer look

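In 10 genes of the set and its 7 pathway lists, limma's interaction test for doxycycline passed (change with the inhibitor minus change without, 3 arrays a group). The set held 10 genes and the lists 35, 29, 10, 15, 12, 13 and 20 measured genes. Over all clusters, limma called 0.725% higher and 0.170% lower in the interaction. These 195 calls became 84 after quantile normalisation, 6 with every cluster tested and 27 without SB replicate 2. For genes outside the members, single calls were not followed under these settings. Among the members Col1a1 passed, at 1.78 (adjusted p = 0.0434), a call lost when most single arrays were left out. Above 0 were also Adamts14 at 1.28 (adjusted p = 0.0251), Loxl4 at 0.78 (adjusted p = 0.0319) and Aspn at 1.80 (adjusted p = 0.0231), and, outside the rule for named genes, Ogn at 1.76 (adjusted p = 0.0155) and Inhba at 1.09 (adjusted p = 0.05, just under the threshold). Below 0 were Col18a1 at -1.20 (adjusted p = 0.0296), Col11a1 at -0.95 (adjusted p = 0.0150), Ltbp2 at -1.34 (adjusted p = 0.0101) and Timp3 at -0.76 (adjusted p = 0.05, also just under it). For Col18a1, Col11a1 and Ltbp2 the rise with doxycycline was measured in cells without the inhibitor, where Ltbp2 went from 7.44 to 8.61, against 6.48 to 6.30 with it. Aspn with the inhibitor started from a mean of 4.47 in SB, already under the array-wide median of 4.93.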

How the results depend on the processing

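Of 1530 changes of single members recomputed under the alternatives, 1465 kept their side of the threshold, 47 lost the call and 18 gained it. Among changes called in the main fit or in the alternative, 0 changed sign. Changes called in neither could change sign, as that of Lox from SB to SB+Dox did. The count of members with a higher interaction, 1, became 2 with the replicate block, with arrays centred on their medians, with dim clusters left out, with the eBayes trend and without the third replicate of every group, 3 with array weights, and 0 after quantile normalisation and with every cluster tested. It ran from 0 to 2 when 1 array was left out. The count of members higher in SB+Dox than in Dox, 1, was 0 with every cluster tested and 0 to 1 without 1 array. For the doxycycline difference between Col1a1 and Col1a2, -0.72, the sign-flip test of same-numbered differences gave an adjusted exact p of 0.15. Without 1 array this difference ran from -0.87 to -0.58. That between Col5a1 and Col5a2 ran from -0.10 to -0.022. Without 1 array the return ran from -82.9% to -30.4% for Col12a1, -94.9% to -39.1% for Col1a2 and -10.1% to 11.4% for Lox. The cause of these shifts was not tested, except that testing every cluster adjusts over more tests and leaving out an array removes data. The block gained Col3a1 in SB against control (adjusted p = 0.0352), where the numbers do not pair the groups, and in the interaction (0.00395). It also gained Col1a1 in SB+Dox against Dox (0.0279), where same-numbered arrays correlated above the others. In limma's comparisons it changed no other member's call, apart from that of Col1a2 in SB+Dox against SB. Called clusters over the whole table in SB against control numbered 1390, 2794 with array weights, 876 with every cluster tested and 779 to 1644 without 1 array. In Dox against control there were 1156, 1831 with weights and 744 to 1305. In SB+Dox against SB there were 1550, 3076 with weights and 724 to 2521, and in SB+Dox against control 1146, 1935 with weights, 696 with every cluster and 644 to 1351. The interaction had 195, 421 with the block, 678 with weights, 84 after quantile normalisation, 6 with every cluster and 27 to 352 without 1 array. With 3 arrays a group and no background level, changes as small against their spread as that of Col8a1 are near the limit of these data.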
